A study of Drosophila melanogaster with 2 samples.

Results

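The Antennapedia (Antp) locus of Drosophila melanogaster held 38 of the 2457 peaks deposited for Polycomb-like (Pcl) in whole embryos. The peaks were chosen by position: they lie on chromosome arm 3R and their centres fall between 2.692 and 2.880 Mb on build BDGP5, a window of 188 kb drawn to take in the long Antp transcription unit, both of its promoters and flanking DNA. The data are 1 peak list from ChIP-seq, in which DNA bound by a protein is pulled down with an antibody and sequenced. The Pcl_ChIP sample is chromatin of embryos of 0 to 8 h, pulled down with the Pcl antibody KW4-Pcl-D2, and its control, Input, is chromatin of embryos of the same stage. Neither group was treated. The growth protocol shared by the samples names iso1 (y; bw cn sp) flies and transgenic flies, and the sample labels do not say which were used. The ChIP sample carries replicates 1, 2 and 3 in its title, whereas the design text gives 2 replicates for ChIP-seq. The 1 list gives no separate replicate values, and which replicates went into it is not stated. The input was not analysed here as it came with no peak list.

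Antp encodes a homeodomain transcription factor of the Hox family that specifies thoracic segments, above all the mesothorax with its legs, and its misexpression in the head turns antennae into legs. Hox genes such as Antp are active in a limited set of segments along the body and are held silent elsewhere by Polycomb group proteins, which act through DNA elements called Polycomb response elements. Pcl, which has PHD fingers, is a partner of the Polycomb complex PRC2, the methyltransferase for lysine 27 of histone H3, the mark of this silencing. A whole embryo mixes cells with active and with silent Antp.

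In the Release 6 gene order of 3R the protein-coding genes next to Antp on one side are ftz (a pair-rule homeobox gene), Scr (the Hox gene of the first thoracic and labial segments), Dfd (a Hox gene of the head), Ama, bcd (the anterior maternal determinant) and zen, with CG34297 and zen2 between zen and pb (the Hox gene of the mouthparts). On the other side CG46458 and Sodh1, named for sorbitol dehydrogenase, are the nearest. Antp therefore ends the Antennapedia complex on that side. These names give only the order of genes. No gene coordinates of BDGP5 were used, so no peak was placed on an Antp promoter, exon or intron.

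Pcl peaks stood throughout the Antp window, and a minority of them carried high scores. The first peak started at 2698773 and the last ended at 2872463, a span of 173.7 kb, of which 40.6 kb or 23.4% lay under peaks and 133.1 kb was free of them. The 38 peaks were 1.55% of the list (95% exact Clopper-Pearson interval 1.10 to 2.12) and 4.80% of the 791 peaks on 3R (3.42 to 6.53). These intervals cover counting error only, and they treat peaks as independent, which neighbouring peaks are not. A peak list cannot separate Pcl bound in more cells from more Pcl bound per cell. With 1 list and no separate replicate values there is no replicate error, so no difference given here was tested.

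**Figure D1:**
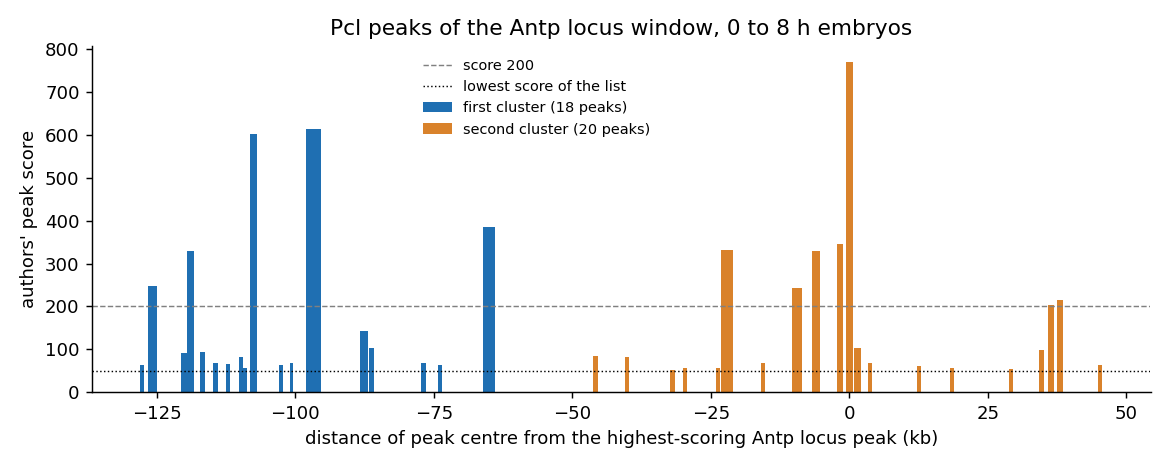
Pcl peaks of the Antp window drawn as bars: the horizontal axis is the distance of each peak's centre from the highest-scoring peak in kb, the vertical axis is the authors' peak score, and the width of a bar is the width of its peak. Blue bars are the 18 peaks before the longest peak-free stretch and orange bars the 20 after it; 12 bars reach the dashed line at a score of 200, and the dotted line is the lowest score of the list, 50.01.

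By score the peaks were sorted into a high set of at least 200 and a low set under 100, with 3 peaks between them. The deposited score was assigned to each peak by the authors' peak caller. It ranks peaks within this list and is not a measured occupancy. In the Antp window 12 of 38 peaks (31.6%, exact interval 17.5 to 48.7) scored at least 200, against 7.45% of the whole list. A score of 500 or more was found in 3 peaks, or 7.89% (1.66 to 21.4), against 2.04% of the list. Only 3 peaks, 7.89% (1.66 to 21.4), scored from 100 to under 200. The list had 19.9% there, which lies within that interval. Another 17 peaks scored from 60 to under 100 (44.7%, against 46.6% of the list) and 6 scored under 60 (15.8%, against 26.0% of the list). The median score was 83.4 in the Antp window (exact interval 67.6 to 144) and 73.5 in the rest of the list (71.95 to 75.3). The medians thus lay close together, while the upper quartile was 235.5 in the window and 104.8 in the rest of the list.

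None of the Antp peaks was among the 20 highest of the list. Of the 38, 3 were among the top 50 (7.89%, where the list by construction has 2.04%), 8 among the top 100 (21.1%, against 4.07%) and 12 among the top 200 (31.6%, against 8.14%). The median rank by score was 948 of 2457. In what follows the peaks are numbered 1 to 38 in map order.

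The highest peak of the locus was number 29, at 3R:2826119-2827398, with a score of 769.28, rank 28 in the list and 11 on 3R. It was 1280 bp wide and stood in a tight group. Peak 28 (2824558 to 2825624, score 344.7, rank 91) ended 494 bp before it, and peak 30 (2827679 to 2828945, score 104.09, rank 628) began 280 bp after it. Together these 3 peaks ran from 2824558 to 2828945, 4388 bp, with peaks on 82.4% of that length.

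Peak 29 was also the end of the only series of more than 2 neighbouring peaks that all scored at least 200. Peaks 26 to 29 ran from 2816397 to 2827398, 11.0 kb, and covered 50.4% of it. Peak 26 (2816397 to 2818162) scored 242.03 and was 1766 bp wide, the fourth widest of the locus. Peak 27 (2819997 to 2821428) scored 330.25 and was 1432 bp wide. The scores of this series thus increased along the map from peak 26 to peak 29, and then dropped to 104.09 at peak 30 and 68.31 at peak 31 (2830216 to 2830915, 700 bp).

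The other 2 peaks with a score of at least 500 lay about 100 kb from peak 29, in the first part of the locus. Peak 13, at 3R:2728712-2731318, scored 613.79 (rank 40) and was the widest of the locus at 2607 bp. Its centre lay 96.7 kb from that of peak 29. No other peak lay within 1 kb of it, the nearest being 2320 bp before and 7053 bp after. Peak 10, at 3R:2718505-2719929, scored 601.57 (rank 42) at a width of 1425 bp. Both of its neighbours, peaks 9 (57.33) and 11 (64.11), were in the low set.

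The remaining high peaks were spread over the locus. Peak 18 (2760729 to 2762802) scored 385.34, rank 76, and was the second widest at 2074 bp. Peak 24 (2803696 to 2805703) scored 331.14, rank 97, and was the third widest at 2008 bp. Peak 4 (2707248 to 2708521) scored 329.61, rank 99, at 1274 bp. Peak 2 (2700158 to 2701825) scored 247.24, rank 143, at 1668 bp. Peaks 36 (2862598 to 2863796, score 203.99) and 37 (2864269 to 2865333, score 215.91) formed a pair 472 bp apart and lay just inside the limit of 200. Just under that limit the next score was 143.83, at peak 14 (2738372 to 2739866).

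High peaks came in 4 groups when centres more than 20 kb apart were separated. Peaks 2, 4, 10 and 13 made up the first group, 31.2 kb long. Peak 18 stood alone. Peaks 24 and 26 to 29 made up the third group, 23.7 kb long, and peaks 36 and 37 the fourth, 2.74 kb long. Between the groups the distance from one high peak to the next was 31.8 kb, 42.9 kb and 36.4 kb, whereas within them it ranged from 1.60 to 12.6 kb. The median over all 11 distances was 10.8 kb.

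The long intervals between these groups were not empty but held peaks scoring under 200. Between peaks 13 and 18 stood peaks 14 (143.83), 15 (103.27), 16 (69.11) and 17 (63.41). Between peaks 18 and 24 there were 5 peaks in a row under 100, numbers 19 to 23, from 2780420 to 2803435, with scores of 51.99 to 83.54 and peaks on 17.6% of the stretch. After peak 30 (104.09), another 5 in a row, numbers 31 to 35, from 2830216 to 2861993, scored 54.73 to 98.88 and covered 11.9%. A further row of this kind, numbers 5 to 9, scored 57.33 to 93.18 but was packed into 8.51 kb and covered 48.9% of it. The 3 lowest scores of the locus were 51.99 at peak 21 (2794385 to 2795250), 54.73 at peak 34 (2855612 to 2856342) and 56.23 at peak 23 (2802712 to 2803435). These are near the lowest score in the list, 50.01, so whether such peaks are listed depends on the authors' cut-off.

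Widths followed scores closely within the locus. Widths ranged from 639 to 2607 bp with a median of 882.5 bp (exact interval 732 to 1106), against 829 bp in the rest of the list (815 to 842). Spearman's rho between width and score was 0.84 across the 38 peaks and 0.66 across the 2419 others. This is a description across peaks of 1 list, in which both values come from the same reads. The 12 high peaks had a median width of 1428.5 bp and none was narrower than 1065 bp, and the other 26 had a median of 742 bp and reached 1495 bp. The 3 narrowest peaks were number 11 (2723836 to 2724474) at 639 bp, number 1 (2698773 to 2699435) at 663 bp and number 12 (2725721 to 2726391) at 671 bp. Their scores were 64.11, 62.76 and 68.7, all in the low set. A width of at least 1000 bp was found in 16 of 38 peaks (42.1%, exact interval 26.3 to 59.2), against 29.7% of the list. For at least 2000 bp the count was 3 (7.89%, 1.66 to 21.4), against 3.22%.

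Some of the high Antp peaks were narrow for their score. Of the 50 peaks of the list with a score of at least 500, whose median width was 2547 bp, only 2 were narrower than peak 29, and 1 of those 2 lay on a chromosome arm. Only 5 were narrower than peak 10, 4 of them on an arm. Peak 13, in contrast, was close to that median, with 26 of the 50 narrower than it. Among the 133 list peaks from 200 to under 500, with a median width of 1619 bp, 17 were narrower than peak 37 and 19 narrower than peak 28. On the arms these counts were 5 and 7 of 121. Peaks 28, 29 and 37 all had a neighbour less than 500 bp away. The same held for the high peaks 4, 10, 24 and 36, and not all of these were narrow. Peak 24, with a neighbour 260 bp away, had 94 of the 133 narrower than it, and peak 4, with one 53 bp away, had 40. Whether the peak caller divided a broader bound region at any of these peaks was not tested, since the list holds no read coverage.

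**Figure D2:**
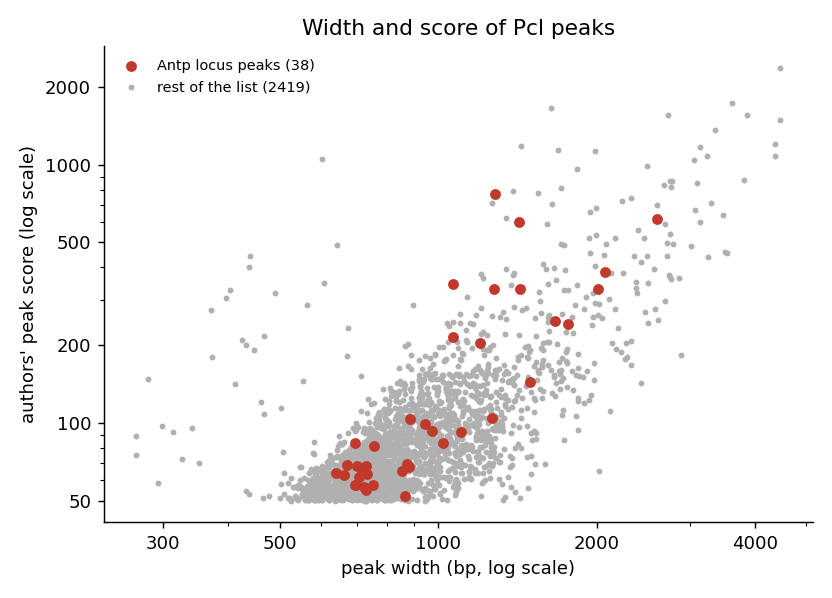
Width of each Pcl peak in bp (horizontal, log scale) against the authors' peak score (vertical, log scale), with the 38 Antp locus peaks in red over the 2419 other peaks of the list in grey. Most red points follow the grey cloud, while peaks 29 and 10, at 1280 and 1425 bp and scores of 769.28 and 601.57, lie on its narrow side.

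Neighbouring Antp peaks were close together, with 1 long interruption. The median gap, counted from the end of one peak to the start of the next, was 2157 bp over the 37 gaps, with quartiles of 722 and 5280 bp. In the rest of the list the median gap was 17.5 kb. The median distance between neighbouring centres in the locus was 3433 bp, with a range of 778 bp to 19.2 kb. Gaps under 1 kb numbered 11 of 37, or 29.7%, against 12.1% of all gaps in the list. Gaps of 10 kb or more numbered 1 of 37, or 2.70%, against 59.0% in the list.

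The 3 shortest gaps were all in the first part of the locus. Peaks 3 (2706089 to 2707194, score 92.16) and 4 (score 329.61) were 53 bp apart. Peaks 8 (2716513 to 2717266, score 81.12) and 9 (2717321 to 2718014, score 57.33) were 54 bp apart. Peaks 14 (143.83) and 15 (2740018 to 2740900, 103.27) were 151 bp apart. Of the 12 high peaks 8 had a neighbour within 1 kb, while 20 of all 38 peaks had none that close. Scores above both neighbours were found in 8 of the 12, and in 10 of all 38. The count among the 12 follows in part from choosing them by score. Joining all gaps under 1 kb left 27 separate regions, of which 20 were single peaks.

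The longest peak-free stretch of the locus lay between peak 18 and peak 19, from 2762803 to 2780419, 17.6 kb. It was bordered by the high peak 18 (385.34) on one side and by peak 19 (2780420 to 2781439, score 83.54) on the other. This stretch is longer than 51.0% of the gaps between neighbouring peaks in the list, close to their midpoint. It made up 13.2% of the peak-free length.

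The next 4 peak-free stretches were all under 10 kb. The second, 9.92 kb from 2845696 to 2855611, lay between peaks 33 (2844997 to 2845695, score 57.43) and 34 (54.73), both close to the cut-off. The third, 8.60 kb from 2740901 to 2749503, lay between peaks 15 (103.27) and 16 (2749504 to 2750374, score 69.11). The fourth, 8.03 kb from 2830916 to 2838948, followed peak 31 and ended at peak 32 (2838949 to 2839655, score 61.99). The fifth, 7.47 kb from 2753264 to 2760728, lay between peak 17 (2752532 to 2753263, score 63.41) and peak 18. Peak 18 was thus the most isolated of the high peaks, with 7465 bp free before it and 17617 bp free after it. The 5 stretches together made up 38.8% of the peak-free length.

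**Figure D3:**
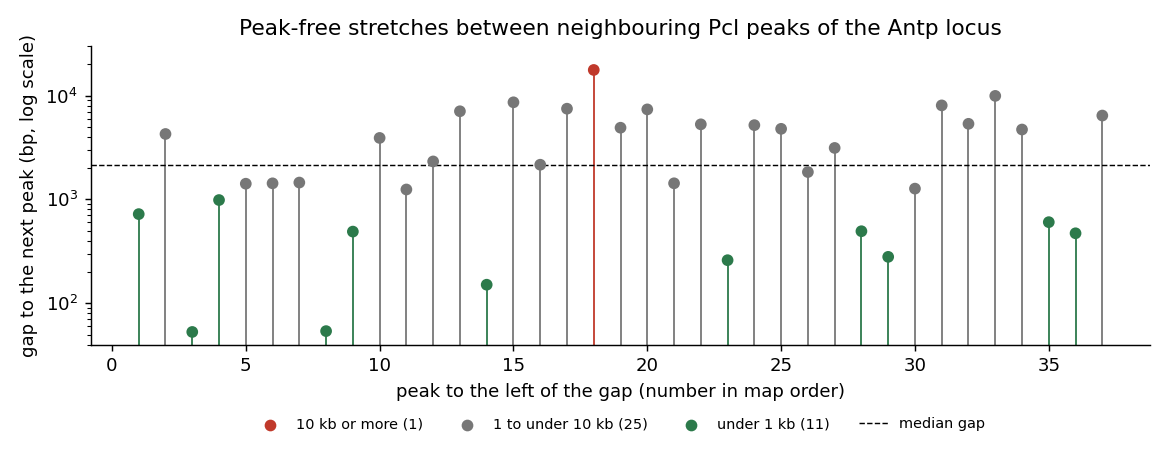
Length of each of the 37 peak-free stretches between neighbouring Pcl peaks of the Antp locus, in bp on a log scale, in map order; a point stands for the stretch to the right of the numbered peak, and the dashed line is the median of 2157 bp. The stretch after peak 18 is the only one over 10 kb, and the 11 stretches under 1 kb are spread over both sides of it.

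The 17.6 kb stretch divided the Antp peaks into 2 clusters of like number and unlike density. The cluster after it, peaks 19 to 38 from 2780420 to 2872463, held 20 peaks over 92.0 kb, and the cluster before it, peaks 1 to 18 from 2698773 to 2762802, held 18 over 64.0 kb. The earlier cluster is cut by the window limit. With gaps under 10 kb joined, it also takes in the peak at 2690019 to 2691699, which scored 201.93. It then holds 19 peaks from 2690019 to 2762802. The values below are for its part inside the window. Peaks covered 22.1% of the later and 31.6% of the earlier cluster. The median gap was 4706 bp in the later and 1428 bp in the earlier cluster. The covered length was nearly equal, 20367 bp against 20264 bp, and so were the median widths, 905.5 bp against 882.5 bp, and the median scores, 83.4 against 86.6. High peaks numbered 7 in the later and 5 in the earlier cluster, and peaks under 60 numbered 5 in the later and 1 in the earlier cluster.

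In bins of 20 kb, peaks were most numerous in the 2 bins with the highest scores. The bin from 2712000 to 2732000 had 8 peaks on 42.6% of its length and holds peaks 10 and 13. The bin from 2812000 to 2832000 had 6 peaks on 37.6% and holds peak 29. The sparsest full bins, from 2772000 to 2792000 and from 2832000 to 2852000, had 2 peaks each on 8.57% and 7.03% of their length, with highest scores of 83.54 and 61.99.

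At its ends the locus passed into its surroundings in different ways. Before the window, the nearest peak lay at 2690019 to 2691699, scored 201.93 and ended 7073 bp before peak 1, a gap no longer than several inside the locus. After the last Antp peak, number 38 (2871748 to 2872463, score 63.52), 16.3 kb were free up to the peak at 2888806 to 2889561, which scored 56.82. The 188 kb above the window held 5 peaks with scores of 52.92 to 83.73, separated in map order by gaps of 15.7 kb, 34.5 kb, 62.9 kb and 616 bp. No peak overlapped either limit of the window, so counting by any overlap gave the same 38 peaks.

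Set against windows of the same length on both sides, the Antp window had more peaks and more high peaks. It held 38 peaks, against 23 in the 188 kb just below and 5 in the 188 kb just above, which makes 2.71 times the mean of the flanking windows. That mean blends unlike windows, with 23 and 5 peaks. In the gene order the other genes of the Antennapedia complex lie on the ftz side of Antp only. The flanking windows were not matched for gene content and are no neutral background. Peaks covered 21.6% of the Antp window, against 13.2% of the window below and 2.22% of the window above. High peaks of at least 200 numbered 12 in the Antp window, 4 in the window below (17.4%, exact interval 4.95 to 38.8) and 0 of 5 in the window above, where the interval reaches 52.2%. The share of peaks of at least 200 thus overlapped widely between the Antp window and the one below. The single highest peak of the 3 windows was in the one below, with a score of 861.29. The median score there was 98.5, against 83.4 in the Antp window, and the median width 880 bp against 882.5 bp. The longest gap was 17.6 kb in the Antp window, 29.0 kb in the window below and 62.9 kb in the window above.

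**Figure D4:**
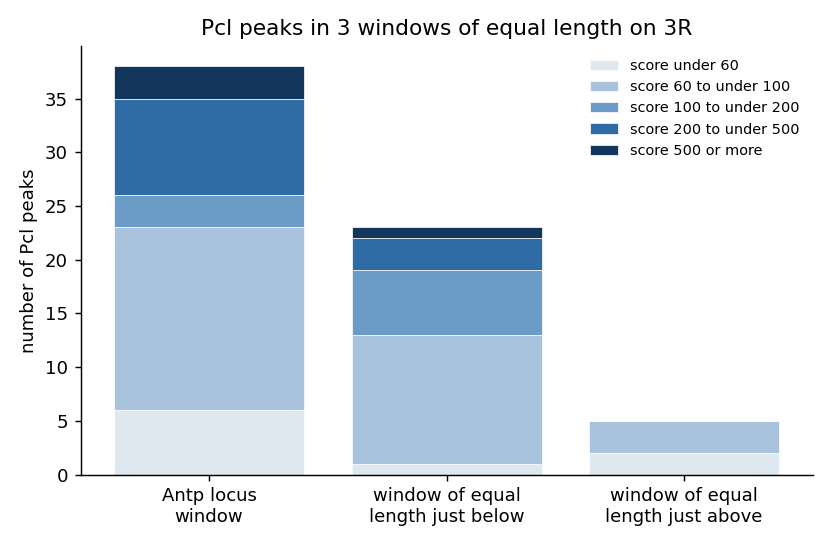
Number of Pcl peaks in the Antp window and in the windows of equal length just below and just above it on 3R, stacked by the authors' score with darker shades for higher scores. The Antp window has 38 peaks, the one below 23 and the one above 5, and peaks from 100 to under 200 number 3, 6 and 0.

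The most populated cluster of the list, 107 peaks from 12487002 to 12805868 on 3R, was denser than the Antp window. The Antp window had 20.2 peaks per 100 kb, counted over its fixed 188 kb, and that cluster 33.6, counted from its first to its last peak. The cluster was picked for having the most peaks with gaps under 10 kb, so its density follows in part from that choice. The median gap was 2157 bp in the Antp window and 782 bp in the cluster, and 29.7% against 59.4% of gaps were under 1 kb. The share of peaks of at least 200 was 31.6% in the Antp window (exact interval 17.5 to 48.7) and 28.0% in the cluster (19.8 to 37.5), within each other's intervals. For scores of at least 100 the shares were 39.5% (24.0 to 56.6), against 27.3% of the whole list, and 57.0% (47.1 to 66.5). The median score was 83.4 in the Antp window (67.6 to 144) and 129 in the cluster (90.3 to 156).

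Among stretches of 188 kb on the chromosome arms, picked one after another without overlap by the number of peaks, the one over the Antp locus came second. It ran from 2675253 to 2863796 and held 39 peaks, 36 of them from the Antp window. The first held 69 peaks, the third 37 and the fourth 27. The first ran from 12606477 to 12795053 and the third ended at 12602436, so both touched the most populated cluster, and outside it no stretch held as many peaks as the Antp locus.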

How the data were processed

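ChIP-seq and input samples of 0 to 8 h embryos, crosslinked in 1.8% formaldehyde for 15 min per the labels' protocols, were described by 1 deposited list of 2457 peaks. Peaks were called with MACS, per the file headers. Bowtie and build BDGP5 are named in the submitters' processing notes; the sources used here give no versions or settings, nor how replicates were combined. Each deposited score has no stated scale, and the lowest is 50.01. The list holds no counts, so depth is unknown. Starts were converted to 1-based positions. Widths, gaps, ranks and clusters (gaps under 10 kb) were computed with Python 3.11.15, pandas 2.3.3, NumPy 2.4.6 and SciPy 1.17.1, and the gap and interval functions were tested on simulated data. Shares have 95% exact intervals, and medians have exact intervals from ordered values. The window, the members and the comparisons were chosen with earlier results of these data known. Peaks described singly are the 10 highest, the 3 widest, narrowest and lowest, the first and last, and those beside the 5 longest peak-free stretches; others were added after their values were seen, as were the score limits, the grouping of high peaks at 20 kb, the 20 kb bins and the search for dense stretches. Gene names and gene order came from RefSeq's Release 6 table, without coordinates. Peak and promoter sequences were not used here, since none of build BDGP5 was at hand.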

Additional observations from a re-analysis of the deposited data

How the results depend on the processing

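Of 43 recomputed values, 30 stayed within the exact interval or, for values without one, within 1.5 times. All 24 values under a score minimum of 60, joining of gaps under 1 kb, or membership by any overlap did so, with 32, 27 and 38 peaks. The median gap nevertheless rose from 2157 to 4742.5 bp on joining, close to the upper end of its exact interval, 1270 to 4779 bp. With the score minimum of 60, peaks 33 and 34 dropped out, and the longest peak-free stretch became 21393 bp, between peaks 32 and 35. It stayed within 1.5 times, but the 17.6 kb stretch between peaks 18 and 19 was then no longer the longest. The division into clusters was not recomputed with that minimum. Membership by any overlap could not change the values of the locus itself, since no peak overlapped a limit of the Antp window. The stricter lists changed more, which follows from how they were made. With a score minimum of 100, 15 Antp peaks remained, 2.24% of that list, with a median width of 1425 bp, a median score of 330, 13.6% of the span covered, a median gap of 6237.5 bp and a longest peak-free stretch of 40893 bp. Among the 1228 highest-scoring peaks of the list, 21 peaks remained, with a median width of 1267 bp, a median score of 216 and a longest peak-free stretch of 32103 bp. The number of clusters depended on the gap chosen: 12 at 5 kb and 1 at 20 kb, against 2 at 10 kb. The ratio of Antp peaks to the mean of the flanking windows ranged from 2.16 after joining to 3.0 with a score minimum of 100. The median rank was 948 by score and 1027 by width. No paired analysis was possible because the 1 peak list gives no separate replicate values, and leaving out single replicates could not be run for the same reason. Without read counts, a peak-free stretch shows only that no peak passed the authors' cut-off there.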
